A study of Mus musculus with 4 samples.

Results

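Tnnt2 encodes cardiac troponin T, the subunit that ties the troponin complex to tropomyosin on the thin filament of heart muscle. Its contacts with the splicing factor SRSF4, a member of the SR protein family, were read from 534 crosslink sites of the 33749 in the deposited list. They are all sites of the plus strand of chromosome 1 between 137732000 and 137750000 on the mm9 genome build, where Tnnt2 lies. The list names no genes, so the gene was assigned by this position alone. The locus was selected on its cDNA values per site, which placed it among the regions of the list with most clusters and sites, and the boundary at 137745900 used below to divide it was chosen by the same values. The values that follow are therefore a description, with no test.

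Neonatal cardiomyocytes from C57BL/6 mice of stage P0-1 were transfected with 15 μg of modified RNA for SRSF4 fused to GFP. They were exposed 48 h later to 100 mJ of ultraviolet light, and RNA joined to the fusion was recovered with an anti-GFP antibody (iCLIP). The 4 labelled libraries form 1 group, and no library without the fusion was analysed here, so whether a contact reflects SRSF4 or background in the precipitate was not tested. The list is a sum over 5 data sets, which the sources used here do not tie to the 4 libraries, so there is no spread between replicates and the depth of each library is unknown. The value at a site is the number of cDNAs that ended next to that nucleotide. A site entered the list only if the cDNAs within 15 nt of it passed the authors' false discovery rate of 0.05. Intervals below are 95% exact (Clopper-Pearson) binomial intervals, which treat sites or cDNAs as independent and cover counting error only.

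SR proteins bind short sequences in newly made RNA through RNA recognition motifs, and their arginine- and serine-rich domains help the splicing machinery to select exons. Troponin T passes the calcium signal of troponin C to the thin filament, which sets when the muscle contracts. Its transcript is abundant in cardiomyocytes, and its exons near the 5′ end are joined differently in the fetal and the adult heart. iCLIP counts grow with the amount of a transcript as well as with the protein's contact to it. Tnnt2 RNA was not measured here, so its share in the counts below was not tested.

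The Tnnt2 sites carried 1089 cDNAs, 1.17% of the 93371 in the list (interval 1.10% to 1.24%). They made up 40.5% of the 1320 sites on the plus strand of chromosome 1 and 43.8% of that strand's cDNAs. Among 5448 nuclear regions, formed by joining clusters less than 20 kb apart on 1 strand, the Tnnt2 region ranked 5th by sites and 8th by cDNAs. A region had a median of 3 sites and 3 cDNAs.

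The first Tnnt2 site lay at 137732984 and the last at 137747987, a span of 15004 nt. The GENCODE M21 model of Tnnt2 (ENSMUSG00000026414.13), drawn on another build (GRCm38), is also on the plus strand of chromosome 1 and is 15907 nt long. The listed sites thus spanned a length equal to 94.3% of the model. In that model, the longest coding transcript that reaches the 3′ end has inner exons of 11 to 117 nt and a last exon of 234 nt. Exons make up 23.6% of its last 2020 nt, the length of the dense 3′ part described below. No coordinate was carried between the builds, and whether a given site lies in an exon, an intron or a UTR was not analysed here. The term 3′ part below therefore means position along the listed sites and not a 3′ UTR. The minus strand held 0 sites inside the window. The nearest plus-strand sites outside it were 491 kb before the first and 513 kb after the last Tnnt2 site. The nearest minus-strand site was 2636 nt before the first, with 2 cDNAs. The listed contacts of Tnnt2 therefore stood alone on their strand.

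**Figure D1:**
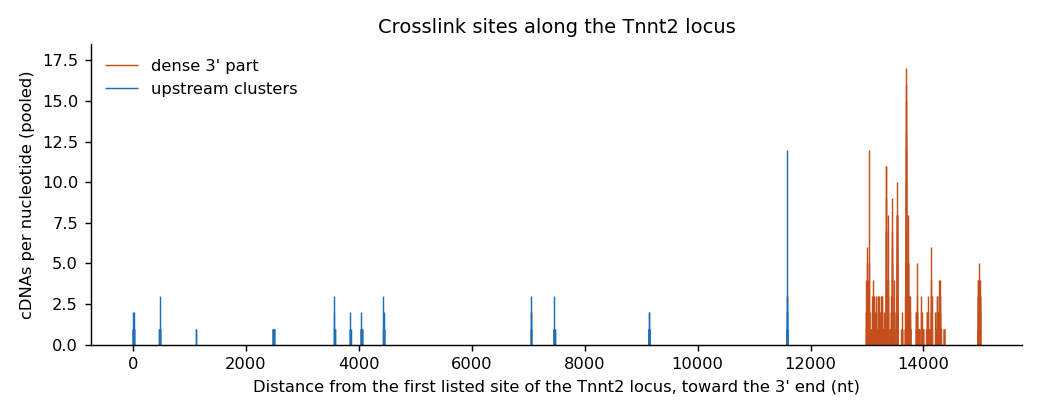
Crosslink sites of Tnnt2, plotted by distance from the first listed site (nt, horizontal) against pooled cDNAs at each nucleotide (linear, vertical); each line is 1 site, blue for the 94 upstream sites and orange for the 440 sites of the dense 3′ part. The upstream clusters are narrow and stay at 3 cDNAs or fewer apart from 1 that reaches 12, and the dense part reaches 17.

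The contacts were very unevenly spread along the listed span. Joining sites at most 50 nt apart gave 20 clusters. Of these, 12 lay upstream of the boundary and 8 in the 3′ part, which runs from 137745968 to the last site. The 3′ part covered 2020 nt, 13.5% of the span. It held 440 sites (82.4%, interval 78.9% to 85.5%) and 958 cDNAs (88.0%, interval 85.9% to 89.8%). The upstream stretch of 11592 nt held the remaining 94 sites and 131 cDNAs. A distance of 1393 nt with no site between separated the last upstream site, at 137744575 with 1 cDNA, from the first site of the 3′ part, with 4 cDNAs.

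Per length, the 3′ part had 47.4 cDNAs per 100 nt and the upstream stretch 1.13 per 100 nt, a ratio of 42.0. With sites joined at most 50 nt apart, most of that ratio lay in how much of each part the clusters covered. Clusters are built from the same sites, so this split depends on the joining distance. Clusters covered 52.0% of the 3′ part and 1.66% of the upstream stretch. Within the covered nucleotides alone, the densities were 91.2 and 67.9 cDNAs per 100 nt, a ratio of 1.34. The share of covered nucleotides that were themselves listed as sites was 41.9% in the 3′ part and 48.7% upstream. An upstream cluster was thus about as closely packed as the 3′ part, but far narrower. Cluster width had a median of 96.5 nt in the 3′ part (range 11 to 555 nt) and 17.5 nt upstream (range 3 to 20 nt).

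Depth per site overlapped widely between the parts. The mean of the 3′ part was 2.18 cDNAs per site with an SD between sites of 2.27 (440 sites), against 1.39 with an SD of 1.25 upstream (94 sites). The difference of 0.78 cDNAs is smaller than either spread, and both medians were 1 cDNA. A single cDNA marked 56.4% of sites in the 3′ part (interval 51.6% to 61.1%) and 78.7% upstream (interval 69.1% to 86.5%). In the whole list the share was 64.8%, between the shares of the 2 parts. Of the 42 sites with 5 or more cDNAs, 41 were in the 3′ part, which held 82.4% of all Tnnt2 sites. In the whole list, 11.0% of sites held 5 or more cDNAs. Without the upstream cluster with most cDNAs, the upstream mean was 1.24 and its highest site held 3.

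For this list, the upstream clusters were wider and held more sites than most, but were less closely packed. They held a median of 8.5 sites (range 2 to 12) and 10 cDNAs (range 2 to 29), against medians of 3 sites and 3 cDNAs over all 7283 clusters of the list. This was not particular to Tnnt2. In the Neat1, Myh6, Ldb3 and Ttn regions described below, the median cluster held 11, 11.5, 6.5 and 5 sites and 13.5, 21, 8 and 7 cDNAs. The median width was 17.5 nt upstream and 4 nt over the list, and the median share of a cluster's nucleotides listed as sites was 52.8% upstream and 80% over the list. A cluster starts and ends on a listed site, so narrow clusters tend to have a high share. Packing was not compared at equal width. Of the 12, 8 held 10 or more cDNAs, where 11.3% of all clusters did. In the 3′ part, 6 of 8 did. Gaps between neighbouring upstream clusters, from the last site of one to the first of the next, ranged from 181 to 2589 nt with a median of 628 nt. No upstream site was without another listed site within 15 nt, and 1 site of the 3′ part was. The authors' filter used the cDNAs within 15 nt, so a shallow site without a neighbour was unlikely to be listed anywhere. The share of such sites over the whole list was not counted.

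The first cluster, at the 5′ end of the listed span, ran from 137732984 to 137733003, with 10 sites and 12 cDNAs. It reached 2 cDNAs at a nucleotide. The other upstream clusters with 10 or more cDNAs, apart from the last, held between 10 and 13 cDNAs each. They began at 137735465 (10 sites, each with 1 cDNA), 137737018 (10 sites, 11 cDNAs), 137737416 (7 sites, 10 cDNAs), 137740024 (6 sites, 10 cDNAs), 137740435 (10 sites, 12 cDNAs) and 137742114 (11 sites, 13 cDNAs). None of these rose above 3 cDNAs at a nucleotide, so they differed little in height. The remaining 4 upstream clusters, which began at 137733448, 137734095, 137736543 and 137736823, held 8, 2, 8 and 6 cDNAs. The cluster of 2 cDNAs was the smallest in Tnnt2, with 2 sites over 3 nt.

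The last upstream cluster stood apart from the other 11. It ran from 137744558 to 137744575, and its 12 sites carried 29 cDNAs, of which 12 fell on the nucleotide at 137744562. Its mean of 2.42 cDNAs per site was above the mean of the 3′ part. In the list, 4.24% of clusters had as many cDNAs or more. It was still 18 nt wide, as narrow as its upstream neighbours, and it lay closest to the 3′ part.

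**Figure D2:**
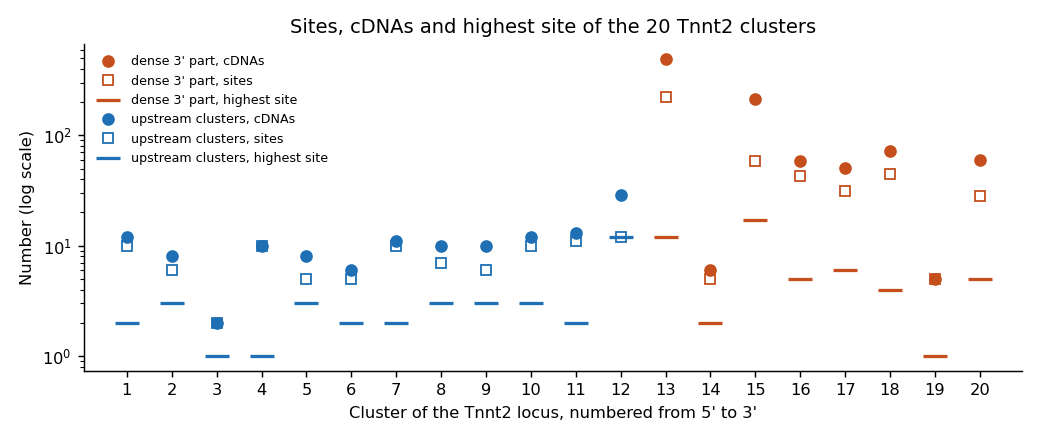
Sites (open squares), cDNAs (filled circles) and the highest site (dashes) of each Tnnt2 cluster on a log scale, with clusters numbered 1 to 20 from 5′ to 3′ and coloured blue upstream and orange in the dense 3′ part. Cluster 12 is the highest upstream at 29 cDNAs, clusters 13 and 15 reach 494 and 212, and clusters 14 and 19 of the 3′ part are as small as upstream ones.

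The 3′ part began with its widest and largest cluster. From 137745968 to 137746522, 225 sites carried 494 cDNAs, 45.4% of all Tnnt2 cDNAs. Of its 555 nt, 40.5% were listed as sites. It ranked 6th of the 7283 clusters by sites and 27th by cDNAs, but only 195th by its highest site, which held 12 cDNAs at 137746018. Its cDNAs were spread out: the fullest 10 nt, from 137746509, held 67 of them, or 13.6%.

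The second largest cluster was narrow and tall by comparison. From 137746662 to 137746754, 58 sites carried 212 cDNAs, 19.5% of the Tnnt2 total. Its mean of 3.66 cDNAs per site was the highest of the 20 clusters. The 10 nt from 137746668 were all listed and held 112 cDNAs, or 52.8% of the cluster. The highest Tnnt2 nucleotide, at 137746671, belonged to it with 17 cDNAs, and the nucleotides before it, at 137746670 and 137746669, held 16 and 15. Together with the widest cluster it held 706 cDNAs, 64.8% of all in Tnnt2.

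The other 6 clusters of the 3′ part were shallower, with 157 sites and 252 cDNAs and a mean of 1.61 cDNAs per site. From 137746852 to 137746982, 43 sites carried 58 cDNAs. From 137747037 to 137747137, 31 sites carried 51 cDNAs. From 137747188 to 137747287, 45 sites carried 72 cDNAs. These 3 followed each other with gaps of 55 and 51 nt and reached 5, 6 and 4 cDNAs at their highest sites. Small clusters at 137746594 (5 sites, 6 cDNAs) and 137747346 (5 sites, 5 cDNAs) resembled the upstream clusters in size. The last cluster, from 137747941 to 137747987, lay 585 nt beyond the one before it. Its 28 sites in 47 nt carried 60 cDNAs and reached 5. The 7 clusters before it spanned 1389 nt, gaps included, and held 898 cDNAs, 93.7% of the cDNAs of the 3′ part.

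**Figure D3:**
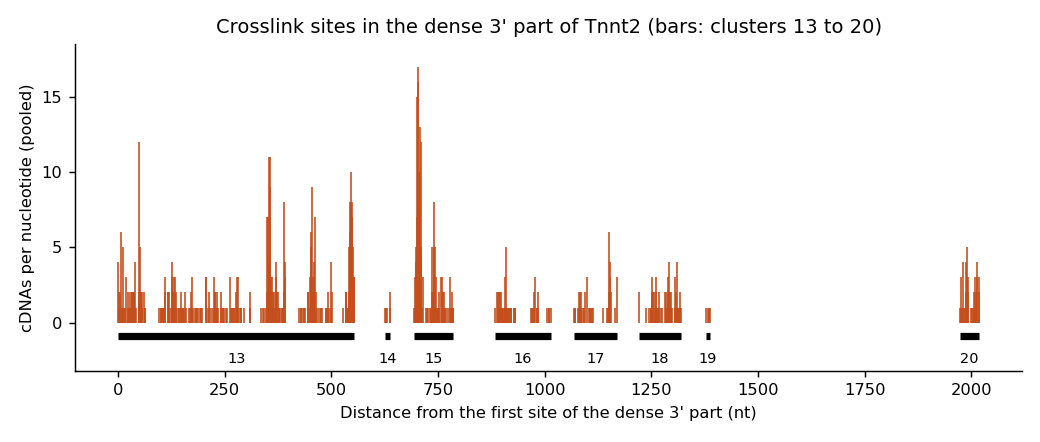
Crosslink sites in the dense 3′ part of Tnnt2, plotted by distance from its first site (nt, horizontal) against pooled cDNAs at each nucleotide (linear, vertical); each line is 1 site and the black bars are clusters 13 to 20. Cluster 13 is 555 nt wide and reaches 12, cluster 15 is 93 nt wide and reaches 17, and cluster 20 starts 585 nt after the last site of cluster 19.

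The cDNAs were unevenly spread along the 3′ part. Of its cDNAs, 25% lay within 351 nt of its first site, 50% within 549 nt and 75% within 892 nt. In bins of 100 nt from the first site, the first 6 bins held 56 to 113 cDNAs each. The fullest was bin 8, with 52 sites and 197 cDNAs, or 20.6% of the 3′ part. The bins on either side of it held 21 and 16 cDNAs. Bins 10 to 14 held 23 to 54 cDNAs each, and 5 bins before the last cluster held none.

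Many of the highest sites, though not all, lay in long unbroken stretches in which every nucleotide was listed. The longest ran for 18 nt from 137746662 to 137746679 and held 136 cDNAs. The next ran for 16 nt from 137746507 to 137746522, at the 3′ edge of the widest cluster, with 79 cDNAs. The third ran for 14 nt from 137746315 to 137746328, with 65 cDNAs. Together these 48 nucleotides were 10.9% of the sites of the 3′ part and held 29.2% of its cDNAs. The longest upstream stretch was 6 nt. A listed neighbour on an adjacent nucleotide was present for 79.1% of sites in the 3′ part and 60.6% upstream. This share was not counted over the whole list, so neither value can be called high or low for it.

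No single nucleotide dominated Tnnt2. The 10 highest sites held 11.8% of its cDNAs, and 104 sites were needed to reach 50%. Of the 12 sites with 10 or more cDNAs, 7 were in the narrow tall cluster (93 cDNAs), 4 in the widest cluster (44 cDNAs) and 1 in the last upstream cluster. Such sites were 2.247% of the Tnnt2 sites, a smaller share than the 5.002% in the whole list. After the 3 adjacent nucleotides given above came 137746676 with 13 cDNAs, and then 137746677, 137746018 and 137744562 with 12 each. In the list, 2.26% of sites had as many cDNAs as the highest Tnnt2 site or more, and the maximum was 296. Among the 30 regions of 10 or more clusters described below, Tnnt2 ranked 2nd by its highest site.

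The same measures were set beside those of other heart muscle loci in the list, to show how the position of the dense part compares. The regions were the 2 with the most clusters on the minus strand of chromosome 14, at 55558453 to 55584703 (the locus of the myosin heavy chain gene Myh6) and 35372265 to 35391762 (the locus of the Z-disc gene Ldb3), and the largest on the minus strand of chromosome 2, at 76649780 to 76793016 (the locus of Ttn, which encodes titin). These gene names also rest on mm9 position alone. A stretch of 2020 nt, the length of the Tnnt2 3′ part, was moved along each region to find the fullest one. It held 88.0% of cDNAs in Tnnt2, 39.7% in the Myh6 region (interval 37.7% to 41.7%), 52.1% in the Ldb3 region (interval 46.8% to 57.5%) and 11.0% in the Ttn region (interval 9.78% to 12.3%). The length is that of the Tnnt2 part itself, and the regions differ in span, from 15.0 kb for Tnnt2 to 143 kb for Ttn, so these shares are not on equal terms and were not tested.

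The place of the fullest stretch also differed. In Tnnt2 it was the 3′ end of the region. In the direction of transcription, it began 67.3% of the way along the Myh6 region, 27.2% along the Ldb3 region and 31.4% along the Ttn region. The last 2020 nt held 88.0% of cDNAs in Tnnt2 and 0.17%, 0.57% and 0.24% in the Myh6, Ldb3 and Ttn regions. A fullest stretch that reached the last site was shared by other regions: among the 28 nuclear regions with 10 or more clusters and a span of at least 2 such stretches, 5 had it there, Tnnt2 included. Over all 30 regions with 10 or more clusters, the median share of cDNAs in the last 2020 nt was 14.2%, and Tnnt2 ranked 1st, ahead of a region with 80.0%. The length was that of the Tnnt2 3′ part, so this rank follows in part from the choice of boundary. A region ends here at its last listed site, which need not be near the end of a gene. The rank also depended on the length of the stretch. Tnnt2 ranked 3rd with the last 3000 nt, where its share was again 88.0%, and 11th with the last 1000 nt, which hold 17.3% of its cDNAs.

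**Figure D4:**
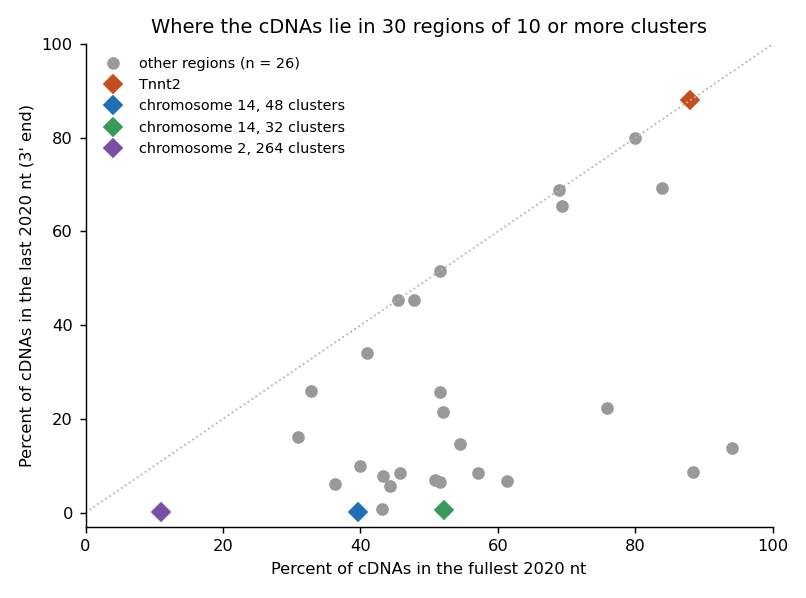
Percent of a region's cDNAs in its fullest 2020 nt (horizontal axis) against the percent in its last 2020 nt in the direction of transcription (vertical axis), for the 30 nuclear regions with 10 or more clusters; each point is 1 region and the dotted line marks equal values. Tnnt2 lies on the line at 88.0%, and the Myh6 (48 clusters), Ldb3 (32 clusters) and Ttn (264 clusters) regions lie near 0 on the vertical axis.

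In depth per site, Tnnt2 stood nearer to the Myh6 region than to the other 2. Its mean was below the 2.77 cDNAs per site of the whole list. Among the 30 regions of 10 or more clusters, whose median was 1.22, it ranked 2nd. The mean was 2.04 cDNAs per site in Tnnt2, 1.88 in the Myh6 region, 1.25 in the Ldb3 region and 1.29 in the Ttn region. The share of single-cDNA sites was 60.3% in Tnnt2 (interval 56.0% to 64.5%) and 54.7% in the Myh6 region (interval 51.9% to 57.5%), and these intervals overlap. It was 79.7% in the Ldb3 region (interval 74.5% to 84.3%) and 77.3% in the Ttn region (interval 75.4% to 79.2%). The upstream clusters of Tnnt2, at 78.7%, were close to the values of those 2 regions. No test was made, since the list is 1 pool and neighbouring sites are not independent.

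By a rule on depth per site, number of sites and the share of cDNAs in the fullest cluster, the regions most like Tnnt2 among the other 29 were one on the minus strand of chromosome 19 at 5840977 to 5845333 (the locus of the nuclear noncoding RNA Neat1) and the Myh6 region, at distances of 1.08 and 1.09 SD units. The third, on chromosome 15 (plus strand), spanned 102301055 to 102329062 at 2.69 units, and with 51 sites it was much smaller. The fullest cluster held 45.4% of cDNAs in Tnnt2, 42.3% in the Neat1 region and 36.9% in the Myh6 region, against a median of 18.1% over the 30 regions. This share was part of the rule, so the likeness in it follows in part from the choice of regions. These fullest clusters were of similar width, 555, 611 and 603 nt. They differed in place: the fullest 2020 nt of the Neat1 region lay at its 5′ end and held 88.4% of its cDNAs, in a region of only 4357 nt.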

How the data were processed

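A single deposited file was analysed. Its values are a score: per the file header and its values, a signed whole number of cDNAs at each 1-nt position, summed by the authors over 5 data sets, with the sign giving the strand. The sources used here do not tie the 5 to the 4 labelled libraries. Per the file header, positions on mm9 (Ensembl release 59) passed a false discovery rate of 0.05 from 100 permutations with a 15 nt neighbourhood. The submitters' processing notes list Bowtie 0.10.1. The peak caller and the handling of duplicate and multimapping reads are not stated in those sources.

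Members, boundary and compared regions were chosen with earlier results of these data known. Described one by one were clusters with 10 or more cDNAs, the first, last and widest cluster, and the 5 highest sites, extended to 7 by ties; the smaller clusters, stretches, bins and the moved 2020 nt stretch were chosen after the values were seen. Clustering and window searches were tested on simulated data. Sequences at sites were not analysed here, since the reference used describes GRCm38. Positions are 1-based. Python 3.11.15, numpy 2.4.6, pandas 2.3.3, scipy 1.17.1 and matplotlib 3.10.9 were used.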

Additional observations from a re-analysis of the deposited data

How the results depend on the processing

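The Tnnt2 window gave 20 clusters with sites at most 50 nt apart, between 14 and 28 with distances of 15, 30 and 100 nt, 20 with sites of 2 or more cDNAs, and 9 with distances under 500 nt. The share of cDNAs in the 3′ part, 88.0%, was 82.4% when sites were counted and 92.6% with sites of 2 or more cDNAs. It was 57.3% with the boundary 500 nt downstream, which cuts through the widest cluster, and 45.4% for that cluster alone. Without the upstream cluster with most cDNAs, an alternative chosen after the data were seen, it was 90.4%. It did not change with the boundary 500 nt upstream. The mean per site was higher in the 3′ part than upstream, by 0.58 to 0.86 cDNAs, without the highest site of each part, with sites of 2 or more cDNAs and with the boundary moved; both medians were 1. With alternatives chosen after the data were seen, the difference was 0.56 without the 3′ cluster with the highest site and 0.93 without the upstream cluster with most cDNAs. Without the widest cluster, single-cDNA sites were 65.0% of the window. The 3′ part had 21.8 sites per 100 nt from first to last site and 41.9 per 100 nt within clusters. The share in the last 1000 nt, also added after the data were seen, was 17.3%. No replicate could be left out and no paired analysis was possible because the list is 1 pool. The list holds only positions past the authors' threshold, so shallower contacts between clusters could not be seen at this depth.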
